A study of Mus musculus with 17 samples.

Results

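Epididymal fat of Kit-mutant mice was compared with that of wild-type mice after both had eaten a high-fat diet (HFD). The comparison takes every array titled KitW/Wv HFD, of which there are 3, and every array titled Cpa3+/+ HFD, of which there are 2, so 5 of the 17 arrays of the study, and it covers all 17166 genes measured. KitW/Wv mice carry 2 mutant Kit alleles, W and Wv. The labels give the wild-type mice as Cpa3+/+ and name no Kit allele for them. The mice of all groups were on the WBB6F1 background (WB X C57Bl/6), ate their diet for 12 weeks and were fasted for 5 h in the morning before the fat was taken. The HFD drew 60% of its energy from fat, and the control diet, labelled LFD, was a chow with 6% fat. The other 12 arrays, 3 in each group, come from KitW/Wv and Cpa3+/+ mice on LFD and from Cpa3Cre/+ mice on either diet. Cpa3Cre/+ mice express Cre recombinase from the Cpa3 locus and lack mast cells with Kit left intact, so they are shown beside the main comparison.

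Kit is the receptor tyrosine kinase for stem cell factor. It acts in blood stem cells, mast cells, germ cells, melanocytes and pacemaker cells of the gut, and KitW/Wv mice are best known as mice without mast cells that are also anaemic and lack pigment. The mutant alleles are present in every cell of the mouse, which limits these mice as a model of the loss of any 1 cell type. In the fat of obese mice, macrophages that take up lipid gather around dying adipocytes, express genes such as Trem2, Gpnmb and Itgax, and divide in place.

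Total RNA was measured on Illumina bead arrays. A level here is a log2 intensity after background correction and quantile normalization, on which a probe without signal lies near 4.2, and a difference is KitW/Wv minus Cpa3+/+. A gene was called changed at an adjusted p below 0.05 (limma, Benjamini-Hochberg over all 17166 genes, 1 model of all 6 groups). Nothing in the labels ties each array to its own mouse, and the spread behind the p-values may be technical. Median intensity was 98.55 to 107.4 per array and 46.9 to 51.7% of probes had detection. The genes that define fat were high in both groups: Adipoq, which encodes adiponectin, lay at 13.77, 13.76 and 13.97 in KitW/Wv and at 13.70 and 13.80 in Cpa3+/+. Kit mRNA itself lay at 7.28, 7.48 and 6.76 in KitW/Wv and at 7.89 and 7.74 in Cpa3+/+ (difference -0.64, limma adjusted p = 0.449). It does not check the genotype label, because the W and Wv alleles need not remove the transcript and the probe's place relative to them is not known here.

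Some arrays stood apart by genes of other cell types or tissues. The mean level of 11 B cell genes on the first KitW/Wv HFD array lay 1.59 above the average of all arrays (log2), that of 14 T and NK cell genes 1.34 above and that of 18 skeletal muscle genes 1.34 above. Haemoglobin and other red blood cell genes lay 1.52 above the average on the third KitW/Wv HFD array. On LFD, epididymis and testis genes lay 3.83 above the average on the third Cpa3+/+ array, and red blood cell genes 1.02 above on the second KitW/Wv array. Without these 4 arrays, which leaves 1 KitW/Wv HFD array against 2 wild-type arrays, 37 genes passed the threshold. They are the arrays whose mean deviation passed 1 on at least 1 of 7 lists (B cell, T and NK cell, neutrophil, red blood cell, skeletal muscle, epididymis and testis, mesothelial and epithelial genes), a limit and a choice of lists made after seeing the data. The counts of the leading lists below are also given without them.

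**Figure D1:**
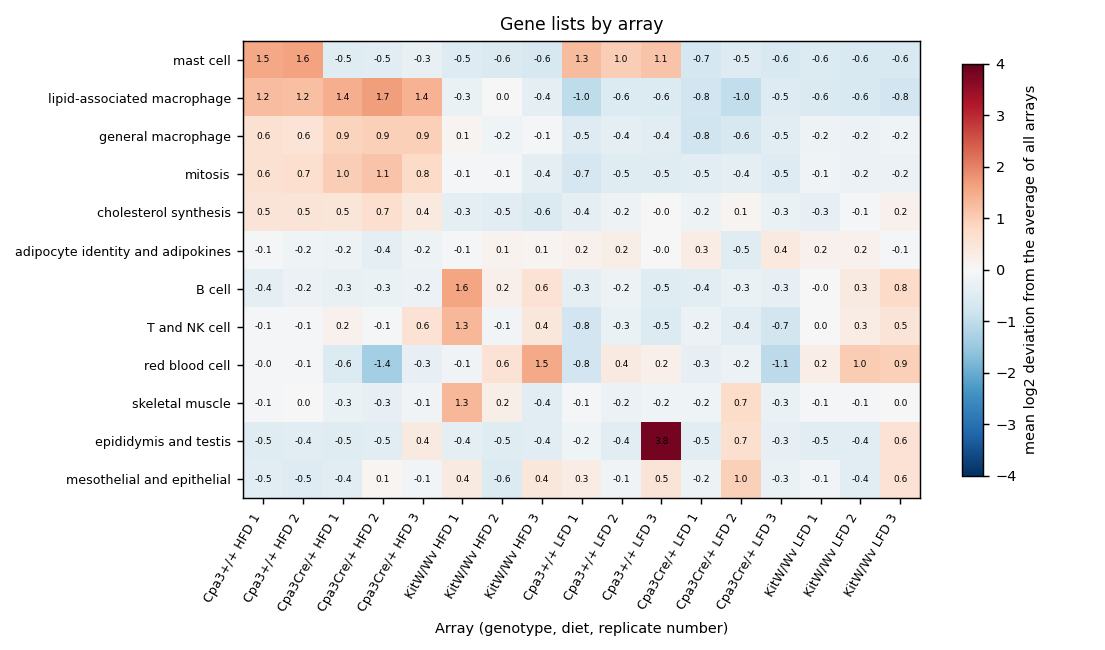
Mean log2 deviation of 12 gene lists from the average of all 17 arrays (rows, lists; columns, arrays by genotype, diet and replicate number; red, above and blue, below the average). Mast cell genes are above average on the 5 Cpa3+/+ arrays, and lipid-associated macrophage and mitosis genes on the Cpa3+/+ and Cpa3Cre/+ HFD arrays.

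On HFD, 405 of the 17166 genes differed between KitW/Wv and Cpa3+/+ (2.36%), of which 303 were lower in KitW/Wv (1.77%) and 102 higher (0.594%). The median difference over all genes was 0.01. Of the lower genes 224 fell by more than 2-fold and 52 by more than 4-fold, against 73 and 20 of the higher genes. The arrays of the groups did not overlap for any called gene, which by itself was common: 37.7% of all genes had no overlap between these 3 and 2 arrays. At an unadjusted p below 0.05 there were 2485 genes. The count rested on the small wild-type group, with 63 genes called without Cpa3+/+ replicate 1 and 81 without replicate 2, against 167 without KitW/Wv replicate 3. Among 80 called genes that the naming rule picked, 20 stayed called whichever of the 5 arrays was left out.

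**Figure D2:**
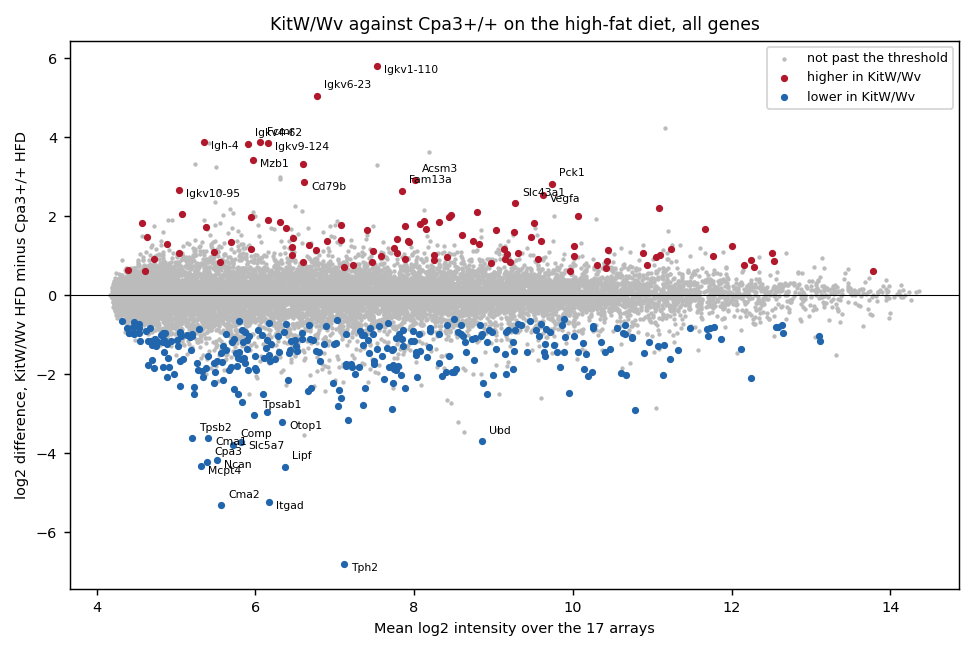
Difference between KitW/Wv and Cpa3+/+ on HFD (vertical axis, log2) against the mean log2 intensity over the 17 arrays (horizontal axis), 1 point per gene; red and blue points are the 102 higher and 303 lower genes past the threshold. The labelled genes are the 14 largest falls, led by Tph2, and the 14 largest rises, led by Igkv1-110.

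The deepest fall was in Tph2 (chromosome 10), the tryptophan hydroxylase known for the first step of serotonin synthesis in neurons. Its level was 5.34, 5.49 and 4.79 in KitW/Wv and 11.87 and 12.13 in Cpa3+/+, a difference of -6.79 (SE 0.48, limma adjusted p = 1.92e-06). It was as high in the Cpa3Cre/+ HFD arrays, at 11.69, 11.55 and 12.00, and every LFD array of KitW/Wv (4.24 to 5.22) and Cpa3+/+ (4.76 to 5.87) was far below these. Among the 12 measured genes of serotonin and choline handling 3 fell and none rose, with a list median of -0.15. The others were Slc5a7, the high-affinity choline transporter of cholinergic neurons, which fell by 3.71 (SE 0.49, limma adjusted p = 0.00112), and Htr2b, a serotonin receptor, which fell by 2.38 (SE 0.41, limma adjusted p = 0.00637). Slc5a7 lay at 5.39, 5.94 and 4.17 in KitW/Wv against 8.93 and 8.83, so its KitW/Wv arrays differed among themselves by more than those of Tph2 did. Without the 4 arrays that stood apart, 2 of the 3 kept their call.

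Several other genes were high in wild-type fat on HFD and near the bottom of the scale in KitW/Wv. Itgad, the integrin alpha D chain found on tissue macrophages, lay at 4.53, 5.59 and 4.17 in KitW/Wv and at 9.73 and 10.26 in Cpa3+/+, a difference of -5.23 (SE 0.43, limma adjusted p = 1.01e-05). Its 5 probes did not move alike, with differences from -5.23 to -0.02. Lipf, which encodes gastric lipase, lay at 5.50, 6.59 and 5.17 against 9.98 and 10.20 and fell by 4.34 (SE 0.46, limma adjusted p = 0.000165). Ncan, the proteoglycan neurocan, lay at 4.69, 4.16 and 4.15 against 8.33 and 8.69 and fell by 4.18 (SE 0.24, limma adjusted p = 3.51e-07). Lipf and Ncan kept their calls with each of the 5 arrays left out in turn. Comp, a matrix protein of the thrombospondin family, fell by 3.78 (SE 0.40), from 8.53 and 8.44 to 4.48, 5.42 and 4.22. Ubd, a ubiquitin-like protein induced by interferon and tumour necrosis factor, stayed well above background in KitW/Wv at 8.53, 8.00 and 8.44, against 11.97 and 12.06, and fell by 3.69 (SE 0.43). Otop1, a proton channel expressed in brown fat, fell by 3.20 (SE 0.30), from 8.43 and 8.59 to 5.14, 5.74 and 5.05. The limma adjusted p of these last 3 lay between 4.16e-05 and 0.000461.

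**Figure D3:**
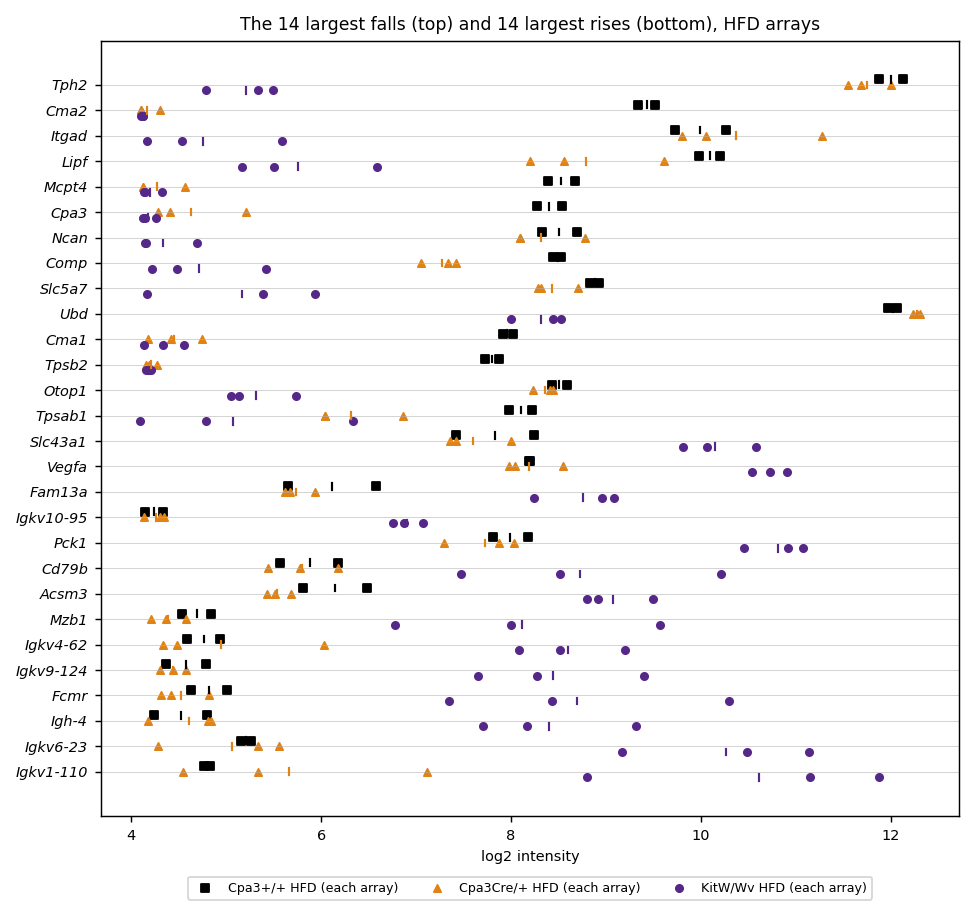
Log2 intensity of the 14 genes with the largest fall and the 14 with the largest rise on each HFD array (squares, Cpa3+/+, n = 2; triangles, Cpa3Cre/+, n = 3; circles, KitW/Wv, n = 3; short bars, group means). Tph2, Itgad and Ubd are high in Cpa3+/+ and Cpa3Cre/+ alike, whereas Cma2, Mcpt4 and Tpsb2 are high in Cpa3+/+ only.

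Mast cell genes formed the list with the lowest median. Of 14 measured mast cell genes 9 fell, none rose and 5 did not pass, with a median of -2.12. Fewer mast cells and less mast cell RNA per cell cannot be told apart in whole fat, and the same holds for the other cell types below. Cma2, a chymase of mast cell granules, lay at 4.12, 4.10 and 4.12 in KitW/Wv and at 9.34 and 9.52 in Cpa3+/+. It had detection on none of the KitW/Wv HFD arrays and was at least 33.7-fold lower (limma adjusted p = 1.17e-08), although a second Cma2 probe moved by 0.20. The granule proteases Mcpt4 and Tpsb2 and the carboxypeptidase Cpa3 were likewise without detection in KitW/Wv and were at least 18.1-fold, 10.9-fold and 16.5-fold lower. Cma1, another chymase, fell by 3.62 (SE 0.25), from 7.91 and 8.02 to 4.56, 4.14 and 4.34.

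Fcer1a, the IgE-binding chain of the mast cell receptor, fell by 2.29 (SE 0.29, limma adjusted p = 0.000697), from 6.39 and 6.95 to 4.66, 4.30 and 4.17. The tryptase Tpsab1 fell by 3.03 but was uneven in KitW/Wv, at 4.79, 6.34 and 4.09. Hpgds, a prostaglandin D synthase that macrophages also express, fell by 1.95, and Ctsg, a protease shared with neutrophils, was at least 1.63-fold lower. The 5 genes that did not pass were Kit, the histidine decarboxylase Hdc (difference 0.44), the transcription factor Gata2 (0.21), the granule proteoglycan Srgn (-0.09) and Mrgprb2 (-0.70), a mast cell receptor at the edge of detection. The mast cell count was 6 without either wild-type array in turn, and 6 without the 4 arrays that stood apart.

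**Figure D4:**
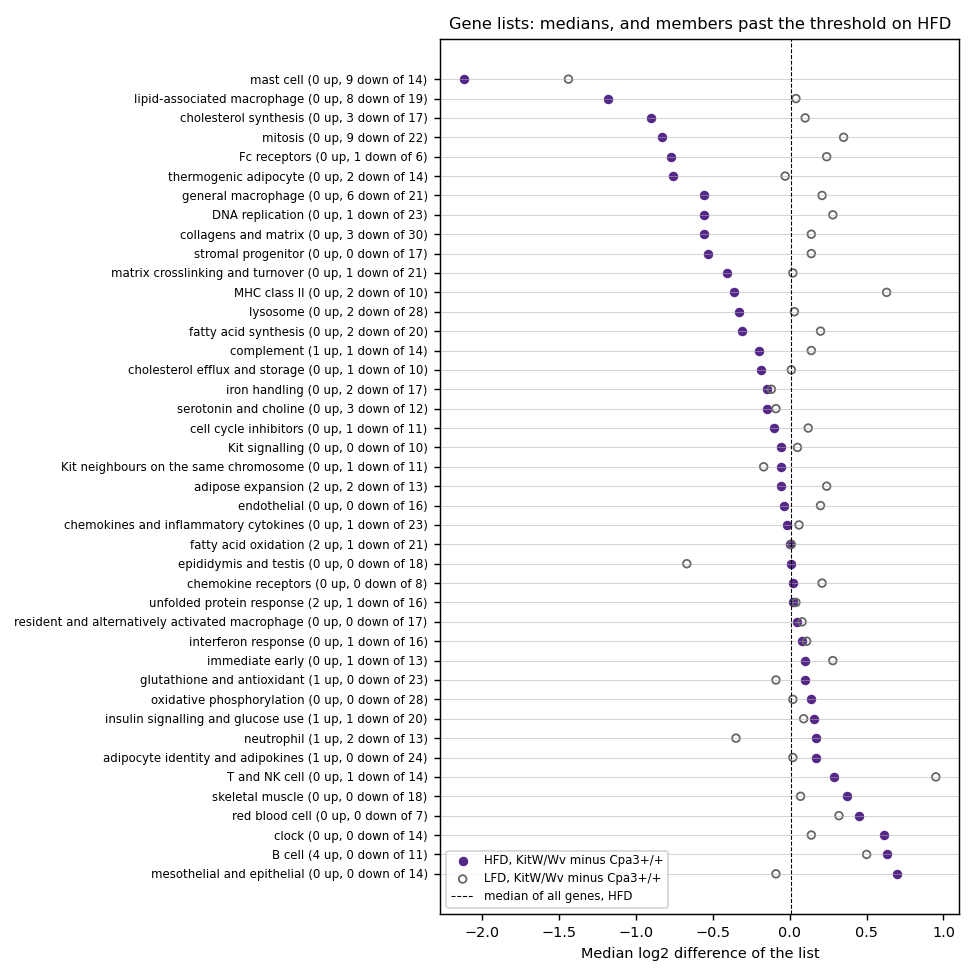
Median log2 difference between KitW/Wv and Cpa3+/+ for each gene list with at least 5 measured genes (filled, HFD; open, LFD; dashed line, the median of all genes on HFD). Beside each name stand the members past the threshold on HFD, higher (up) and lower (down), of those measured; the mast cell list is low on both diets, and the macrophage and mitosis lists on HFD.

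Genes of lipid-associated macrophages were the next lowest. All 19 measured genes had a difference below 0 (48.7% of all genes did), 8 fell past the threshold, none rose, and the median was -1.18. This list, which holds Itgad and Anpep, and the other lists were written with earlier results of these data known. Their counts are therefore not independent of these data. Trem2, the lipid-sensing receptor that marks these cells, lay at 8.92, 9.01 and 8.33 in KitW/Wv and at 11.23 and 11.26 in Cpa3+/+, a difference of -2.49 (SE 0.33, limma adjusted p = 0.00111). Cathepsin K (Ctsk), a collagen-degrading protease, fell by 2.48 (SE 0.42), and the aminopeptidase Anpep fell by 2.35 (SE 0.30). In KitW/Wv all 3 kept levels above the background, and Ctsk lost its call without either wild-type array. Besides Itgad, the other genes past the threshold were Mmp12, a macrophage elastase, Gpnmb, a glycoprotein of lipid-laden macrophages, Itgax, the integrin CD11c, and Cstb, a cathepsin inhibitor. Itgax fell by 1.82, from 6.09 on both wild-type arrays to 4.23, 4.46 and 4.14 (limma adjusted p = 1.4e-05). Of the list 2 genes passed without the 4 arrays that stood apart, 4 without Cpa3+/+ replicate 1, 5 without Cpa3+/+ replicate 2 and 6 or 7 without 1 of the KitW/Wv arrays.

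Of 21 measured general macrophage genes 6 fell, none rose and 15 did not pass, with a median of -0.56. Adgre1, which encodes the macrophage surface protein F4/80, fell by 1.48 (SE 0.22, limma adjusted p = 0.00317), from 10.25 and 10.07 to 8.66, 8.60 and 8.78. Tyrobp, the signalling partner of Trem2, fell by 1.44 (SE 0.27), and the cathepsin Ctss (-1.44, SE 0.25) and the pore-forming protein Mpeg1 (-1.25, SE 0.21) fell as well. The remaining pair, Fcer1g (-1.08) and Laptm5 (-0.75), fell too. Cd68 differed by -1.61 and missed the threshold (limma adjusted p = 0.0517). No general macrophage gene passed without Cpa3+/+ replicate 1 or without the 4 arrays that stood apart, and 1 passed without Cpa3+/+ replicate 2.

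Genes of resident and alternatively activated macrophages gave another picture, with a median of 0.05 and none of 17 past the limma threshold (1 at an unadjusted p below 0.05). Mrc1, the mannose receptor, lay at 10.59, 10.55 and 10.30 in KitW/Wv and at 10.62 and 10.65 in Cpa3+/+. Of 28 lysosomal genes 2 fell, the beta-glucuronidase Gusb (-1.29, SE 0.17) and the protective cathepsin Ctsa (-1.04, SE 0.21). Of the 28 genes 24 were below 0, against 48.7% of all genes, and 1.77% of all genes fell past the threshold. Counts of 1 or 2 genes, here and in the lists below, say little about a list as a whole. Of 10 MHC class II genes 2 fell, H2-DMb1 (-1.99, SE 0.36) and H2-DMb2 (-1.86, SE 0.42), both of the complex that loads peptides. The median of the MHC class II list was -0.36. Its mean lay 0.74, -0.42 and -0.12 from the average of all arrays in KitW/Wv and 0.52 and 0.32 in Cpa3+/+, so the groups overlapped. H2-DMb1 lost its call without either wild-type array, H2-DMb2 without any of 4 of the 5 arrays, with the mean of its probes, with the compared arrays alone and with the block, and Ctsa without any of 4 arrays and with the mean of its probes. H2-DMb1 and H2-DMb2 are near copies, whose probes may share signal, and the probes of H2-DMb2 ran from -1.86 to 1.14. Among 23 chemokines and inflammatory cytokines the single call was Il1rn, the interleukin-1 receptor antagonist, which fell by 1.80 (SE 0.27, limma adjusted p = 0.0027). None of 8 chemokine receptors passed in limma (2 at an unadjusted p below 0.05).

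Of 22 measured mitosis genes 9 fell, none rose and 13 did not pass, with a median of -0.83. Cdca8, a subunit of the chromosomal passenger complex, lay at 5.13, 5.03 and 4.77 in KitW/Wv and at 6.86 and 6.88 in Cpa3+/+, a difference of -1.89 (SE 0.31, limma adjusted p = 0.0057). Cdk1, the kinase that drives entry into mitosis, fell by 1.70 (SE 0.31), from 7.11 and 7.27 to 5.81, 5.45 and 5.20. Birc5, which encodes survivin, fell by 1.52 (SE 0.23), as did the kinesin Kif22 (-1.33, SE 0.30). The other 5 were Cdca3, Prc1, Plk1, Aurka and Aurkb, with differences from -1.29 to -0.99. Of 23 DNA replication genes Tk1, a thymidine kinase of S phase, was the single call, with a difference of -1.60 (SE 0.29), and the list median was -0.56. No mitosis gene passed without Cpa3+/+ replicate 1 or without the 4 arrays that stood apart, while 1 passed without Cpa3+/+ replicate 2 and 3 without KitW/Wv replicate 3.

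Many mitosis promoters carry a CCAAT box and a CHR element, TTTGAA, which cell cycle repressor and activator complexes are known to bind. Both motifs were searched on both strands, as CCAAT or ATTGG and TTTGAA or TTCAAA, in RefSeq promoters of 300 bases (GRCm38.p6), which were at hand for 11011 of the measured genes. Both were present in 14 of the 16 mitosis promoters (87.5%), and in 7 of the 8 that belong to genes that fell (87.5%). They were present together in 5.54% of the measured genes' promoters, in 7.12% of all 27025 promoters and in 9.41% of those of all genes that fell. The share among the mitosis genes that fell was the same as in the whole list. The promoters of Cdk1 (chr10:69352863-69353162, minus strand), Prc1 (chr7:80294201-80294500, plus strand), Aurka (chr2:172370521-172370820, minus strand) and Cdca3 (chr6:124829926-124830225, plus strand) are printed 5′ to 3′. Motif letters are in capitals. The start site lies inside each sequence, before its end, and is not marked. The motifs lay upstream of the start site in Cdk1 and Prc1, and on both sides of it in Aurka and Cdca3.
Cdk1: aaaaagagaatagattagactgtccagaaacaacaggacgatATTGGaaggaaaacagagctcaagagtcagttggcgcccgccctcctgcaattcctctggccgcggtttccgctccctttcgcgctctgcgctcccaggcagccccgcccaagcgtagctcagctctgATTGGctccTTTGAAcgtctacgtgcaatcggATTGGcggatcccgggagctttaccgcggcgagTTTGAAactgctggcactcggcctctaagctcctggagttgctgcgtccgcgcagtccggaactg
Prc1: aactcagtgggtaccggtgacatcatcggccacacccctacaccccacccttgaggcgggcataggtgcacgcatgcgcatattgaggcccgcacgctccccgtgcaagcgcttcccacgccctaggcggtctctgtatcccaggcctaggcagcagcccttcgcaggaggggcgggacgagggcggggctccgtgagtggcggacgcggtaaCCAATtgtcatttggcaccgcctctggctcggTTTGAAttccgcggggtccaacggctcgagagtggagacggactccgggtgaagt
Aurka: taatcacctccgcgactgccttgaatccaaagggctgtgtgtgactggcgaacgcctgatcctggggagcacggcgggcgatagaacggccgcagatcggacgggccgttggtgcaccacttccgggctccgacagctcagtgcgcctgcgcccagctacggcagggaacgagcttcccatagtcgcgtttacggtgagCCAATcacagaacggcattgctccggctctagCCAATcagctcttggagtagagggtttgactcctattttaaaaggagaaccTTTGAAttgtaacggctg
Cdca3: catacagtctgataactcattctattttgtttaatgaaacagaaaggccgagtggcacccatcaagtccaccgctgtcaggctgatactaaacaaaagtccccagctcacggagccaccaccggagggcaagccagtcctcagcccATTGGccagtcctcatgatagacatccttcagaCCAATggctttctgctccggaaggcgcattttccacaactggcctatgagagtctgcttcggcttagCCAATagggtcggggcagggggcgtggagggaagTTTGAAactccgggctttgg

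Matrix genes leaned down with few calls. Of 30 collagen and matrix genes 3 fell, Ncan, Comp and Lum (1.77% of all genes fell). Below 0 lay 27 of the 30, against 48.7% of all genes, with a median of -0.56. Lum, the collagen-binding proteoglycan lumican, fell by 1.83 (SE 0.36, limma adjusted p = 0.0159), from 11.12 and 11.06 to 8.86, 9.85 and 9.08. Lum lost its call without any of 4 of the 5 arrays. Col3a1, a fibrillar collagen, differed by -1.07 and did not pass (limma adjusted p = 0.0847). Mmp13, a collagenase, was at least 2.59-fold lower and without detection in KitW/Wv (limma adjusted p = 0.00134). None of 17 stromal progenitor genes passed in limma (7 at an unadjusted p below 0.05), with a median of -0.53.

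Cholesterol synthesis was the metabolic list with the lowest median, at -0.90. Of its 17 measured genes 16 were below 0, against 48.7% of all genes. The 3 genes that fell encode late enzymes of the pathway, Dhcr7, Lss and Sc5d. Dhcr7, which makes cholesterol from 7-dehydrocholesterol, fell by 1.88 (SE 0.34, limma adjusted p = 0.00914), from 7.12 and 7.15 to 5.38, 5.15 and 5.21. Lss, the lanosterol synthase, fell by 1.67 (SE 0.32) as did Sc5d, a sterol desaturase (-1.41, SE 0.31). None of the 3 passed without either wild-type array or without the 4 arrays that stood apart. Of 20 fatty acid synthesis genes 2 fell, the lipid-droplet lipase Pnpla3 (-2.90, SE 0.53) and the citrate carrier Slc25a1 (-1.11, SE 0.25). Pnpla3 lost its call without either wild-type array and Slc25a1 without any 1 of the 5 arrays.

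Some genes of adipocyte metabolism were higher. Pck1, the enzyme that feeds glycerol synthesis in fat, lay at 10.92, 10.45 and 11.07 in KitW/Wv and at 8.18 and 7.81 in Cpa3+/+, a rise of 2.82 (SE 0.47, limma adjusted p = 0.00569). Fam13a, a gene tied to adipocyte function, rose by 2.65 (SE 0.40, limma adjusted p = 0.00323), from 6.58 and 5.65 to 8.24, 9.08 and 8.96. Vegfa, the main growth factor for blood vessels, rose by 2.53 (SE 0.53, limma adjusted p = 0.021), from 8.20 and 8.19 to 10.91, 10.54 and 10.73. Pck1 lost its call without either wild-type array, Fam13a without Cpa3+/+ replicate 2, and Vegfa without either wild-type array or without KitW/Wv replicate 1 or 3.

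Acsm3, a medium-chain acyl-CoA synthetase, rose by 2.92 (SE 0.59), though the probes of the gene ran from -0.64 to 2.92 and the call was lost with the mean of its probes. Slc43a1, an amino acid transporter, rose by 2.32 (SE 0.47), Agt, which encodes angiotensinogen, by 2.01 (SE 0.34), Eci3, an enzyme of fatty acid oxidation, by 2.03 (SE 0.35) and Gsta4, a glutathione transferase that clears lipid aldehydes, by 1.68 (SE 0.22). Of these 5 genes Gsta4 alone kept its call with each array left out in turn. Gsta4 lay at 8.56, 8.41 and 8.61 in KitW/Wv and at 6.89 and 6.81 in Cpa3+/+. In the adipose expansion list the rises of Fam13a and Vegfa stood beside falls of Trp53inp2, an autophagy gene (-2.03), and Mest, a marker of expanding fat cells (-2.02). Trp53inp2 lost its call without Cpa3+/+ replicate 1 and Mest without any of 4 of the 5 arrays. Agt was the single call among 24 adipocyte identity genes, whose median was 0.17. The adipokine gene Lep lay at 13.14, 13.44 and 12.35 against 14.12 and 13.96 and did not pass (limma adjusted p = 0.265). None of 28 oxidative phosphorylation genes passed in limma (median 0.14, 1 at an unadjusted p below 0.05).

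The largest rises were in immunoglobulin genes. Igkv1-110, a kappa light chain variable gene on chromosome 6, lay at 11.87, 8.80 and 11.15 in KitW/Wv and at 4.77 and 4.83 in Cpa3+/+, a rise of 5.81 (SE 1.29, limma adjusted p = 0.0294). Igkv6-23 rose by 5.05 (SE 1.00, limma adjusted p = 0.0159), and Igkv9-124, Igkv4-62 and Igkv10-95 were also higher. Igkv1-110 and Igkv6-23 lost their calls without either wild-type array or without KitW/Wv replicate 1 or 3, with limma adjusted p up to 0.231 and 0.171. Igkv4-62 and Igkv10-95 lost theirs without either wild-type array and Igkv9-124 without Cpa3+/+ replicate 1. Genes of this family are alike in sequence, so a probe may read several of them. Igh-4, an immunoglobulin heavy chain gene as the array names it, lay at 8.17, 7.70 and 9.32 against 4.80 and 4.24, a rise of 3.88 (SE 0.49, limma adjusted p = 0.000789).

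Of 11 B cell genes 4 rose and none fell, with a median of 0.63. Mzb1, a chaperone of antibody-secreting cells, rose by 3.43 (SE 0.78), from 4.54 and 4.84 to 9.57, 6.78 and 8.00. Cd79b, a chain of the B cell receptor, rose by 2.86 (SE 0.66), the kinase Blk was at least 3.91-fold higher, and Xbp1, a transcription factor of secretory cells that other cells also use, rose by 0.71 (SE 0.17). Fcmr, the IgM Fc receptor, rose by 3.87 (SE 0.86). The first KitW/Wv array was the highest for Mzb1, Cd79b, Blk and Fcmr, and it is the array on which T and NK cell and skeletal muscle genes also stood above the average. Fcmr, Mzb1, Cd79b and Blk lost their calls under the authors' deposited normalized values, with an offset of 50 and with the compared arrays alone, and the first 3 also with replicate number as a block. On LFD the mean level of the B cell list lay -0.02 to 0.77 from the average of all arrays in KitW/Wv and -0.48 to -0.21 in Cpa3+/+. No B cell gene passed on LFD or in the test of the difference between diets given below. On HFD the mean level of the list lay 0.20 to 1.59 above the average of all arrays in KitW/Wv and between -0.40 and -0.24 in Cpa3+/+. No B cell gene passed without either wild-type array or without the 4 arrays that stood apart, while 2 passed without the first KitW/Wv array and 1 without the third. The first KitW/Wv array was among those 4 in part because of its high B cell level. The loss of the B cell calls without the 4 arrays was therefore partly built into their choice. Of 14 T and NK cell genes 1 passed, Il7r, the interleukin-7 receptor, which fell by 1.46.

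Single members of other lists passed as well. Among neutrophil genes Mpo, the granule myeloperoxidase, was at least 2.38-fold higher, from no detection in Cpa3+/+ to 6.17, 5.28 and 5.49, while S100a8, a subunit of calprotectin, fell by 1.45 (SE 0.34). Among 17 iron genes Tfr2, which encodes transferrin receptor 2 (not Tfrc), fell by 2.96 (SE 0.66) and the phagosomal metal transporter Slc11a1 fell by 0.84 (SE 0.18). In the list of the unfolded protein response the stress factor Atf3 fell by 2.22 (SE 0.39), and Asns, the asparagine synthetase, rose by 1.01 (SE 0.24) beside Xbp1. Gys2, a glycogen synthase, fell by 2.15 (SE 0.52), and Cpt1b, the muscle-type carnitine palmitoyltransferase, fell by 1.72 (SE 0.28). Complement C2 rose by 0.96 (SE 0.20) and Itgb2, the shared chain of the leukocyte integrins, fell by 0.88 (SE 0.21). The limma adjusted p of these 10 genes ran from 0.00515 (Cpt1b) to 0.0459 (Gys2). Each lost its call without Cpa3+/+ replicate 2, and all but Cpt1b also without Cpa3+/+ replicate 1. Gys2, S100a8 and Slc11a1 lost theirs without any 1 of the 5 arrays.

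Srd5a3, a steroid reductase gene near Kit on the same chromosome, was the 1 of 11 such neighbours past the threshold and fell by 0.74 (SE 0.15). Srd5a3 lost its call without any of 4 of the 5 arrays and with the compared arrays alone. None of 10 Kit signalling genes passed in limma, nor at an unadjusted p below 0.05. No red blood cell (7 measured), skeletal muscle (18), endothelial (16), mesothelial (14), epididymis and testis (18) or clock gene (14) passed either, with medians of 0.45, 0.37, -0.04, 0.70, 0.01 and 0.61. At an unadjusted p below 0.05 these lists held 1, 3, 1, 4, 1 and 1 genes.

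The genotype difference was then set against the same difference on LFD. There 8 genes passed (0.0466%; 887 at an unadjusted p below 0.05), and the difference between diets was itself tested as an interaction, in which 152 genes passed (0.885%), 137 more negative on HFD (0.798%) and 15 more positive (0.0874%). Of the 8 genes called on LFD, 5 were mast cell proteases, namely Cma2, Mcpt4, Cpa3, Cma1 and Tpsb2. Cma2 lay at 4.09, 4.10 and 4.10 in KitW/Wv on LFD, without detection, and at 9.36, 8.70 and 8.27 in Cpa3+/+, so it was at least 21.5-fold lower there. No mast cell gene passed the test of the difference between diets, which for probes without detection in KitW/Wv compares values at the bottom of the scale. Cma1, with detection on 1 KitW/Wv array on each diet, differed by -3.62 on HFD and by -2.67 on LFD (limma adjusted p of the difference 0.271). Igkv9-124 also passed on both diets, at 3.86 on HFD and 4.05 on LFD.

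Tph2, Itgad, Lipf, Comp, Ncan and Ubd had the most negative differences between diets. Tph2 differed by -6.79 on HFD and by -0.37 on LFD, a difference of -6.42 (SE 0.64, limma adjusted p = 0.000402). Ncan differed by -4.18 on HFD and on LFD had detection on 1 KitW/Wv and no Cpa3+/+ array (limma adjusted p of the difference between diets 2.01e-05). Of the lists, 5 of 19 lipid-associated macrophage genes, 5 of 21 general macrophage genes and 5 of 22 mitosis genes passed this test, all more negative on HFD, and their medians on LFD were 0.04, 0.21 and 0.35. In the positive direction Igh-4 led, at 3.88 on HFD and 0.15 on LFD (difference 3.73, SE 0.66, limma adjusted p = 0.0174). Agt differed by 2.01 on HFD and by -0.89 on LFD (difference 2.90, SE 0.46, limma adjusted p = 0.00867). Fam13a, Ripk4, a kinase of epithelial differentiation, Wdr92 and Nrbp2 followed, with differences of 2.65, 2.45, 2.17 and 2.02. Without the 4 arrays that stood apart 23 genes passed this test.

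**Figure D5:**
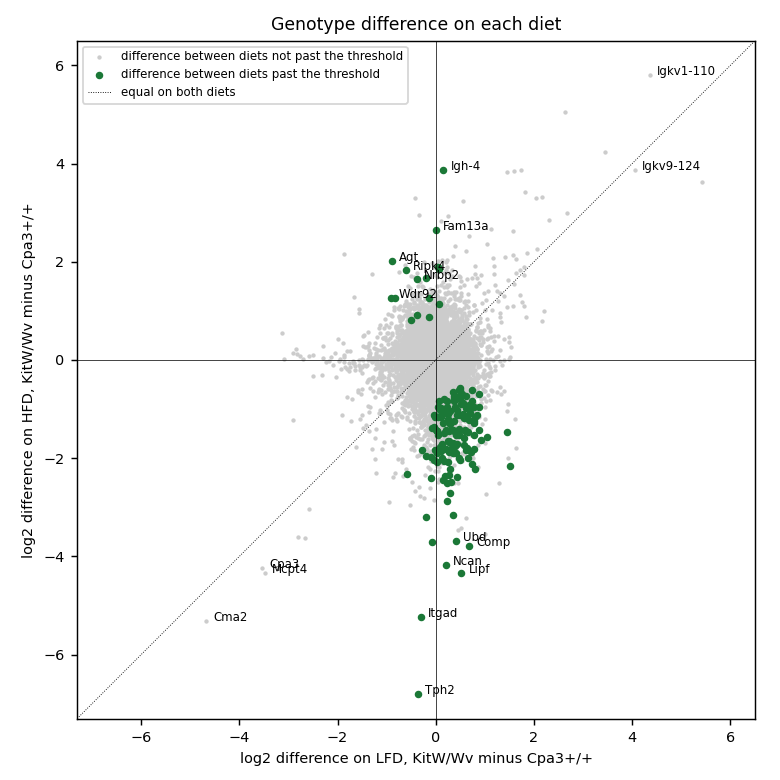
Log2 difference between KitW/Wv and Cpa3+/+ on HFD (vertical axis) against that on LFD (horizontal axis), 1 point per gene; green points are the 152 genes for which the difference between diets passed the threshold, and the dotted line marks equal differences. Tph2, Itgad and Ncan lie near 0 on LFD and far below 0 on HFD, while Cma2, Mcpt4 and Cpa3 are low on both diets.

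The Cpa3Cre/+ HFD arrays place these genes beside a genotype without mast cells and with intact Kit. KitW/Wv and Cpa3Cre/+ on HFD differed in 1348 genes (7.85%, 3 against 3 arrays), and Cpa3Cre/+ and Cpa3+/+ on HFD in 7 (0.0408%, 3 against 2 arrays). Such counts depend on the number of arrays as well as on the size of the differences. These comparisons share arrays with the main one, so their values are given side by side and no overlap is drawn from them. Cma2 lay at 4.10, 4.10 and 4.30 in Cpa3Cre/+, without detection there as in KitW/Wv, and was at least 33.5-fold lower in Cpa3Cre/+ than in Cpa3+/+. Tph2 differed by -6.54 between KitW/Wv and Cpa3Cre/+ and by -0.25 between Cpa3Cre/+ and Cpa3+/+. In the same order Trem2 differed by -3.16 and 0.67, Pck1 by 3.08 and -0.26, and Igkv6-23 by 5.20 and -0.15. Tph2, Trem2, Pck1 and Igkv6-23 differed between KitW/Wv and Cpa3Cre/+ past the threshold.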

How the data were processed

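Total RNA from epididymal fat was biotin-labelled and hybridised to 17 Illumina bead arrays of 46237 probes. Per the submitters' processing notes the arrays were read with GenomeStudio, without a stated version or settings. The deposited non-normalized values are probe intensities on a linear scale, and the detection p-values stand beside them per the file headers. The authors also deposited normalized intensities by a method not given in the sources used here, which served as an alternative. Detection was not a simple function of brightness: on each array 3401 to 7393 detected probes lay below the brightest undetected one. Background, filter and "at least" folds use the detection p-values unchanged.

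Background was estimated from intensities and detection p-values (limma 3.58.1 in R 4.3.3, normexp, offset 16; estimated background means 93.7 to 100.5), arrays were quantile normalized, and values were put on the log2 scale. A probe was kept if 2 or more arrays gave it a detection p below 0.05. Probe symbols came from the platform annotation, updated through Entrez identifiers and RefSeq where they matched (28620 probes); 10453 probes without a symbol were left out. The brightest kept probe stood for each of the 17166 genes. One mean per group was fitted over 17 arrays in 6 groups (11 residual and 3.34 prior degrees of freedom), with Benjamini-Hochberg adjustment over all genes at 0.05. Where a probe had detection on no array of a group, an "at least" fold was taken against the higher of its own value and the lowest detected value of each array (log2 4.33 to 4.42). The number of arrays limits the precision. On simulated data for the main comparison, 67 of the 17166 genes were changed by 1.5-fold, 67 by 2-fold and 66 by 4-fold. Of these changes 1.5%, 34.3% and 84.8% were recovered, and 5.9% of the calls on those data were false. The recovered shares and the 5.9% hold for that setting. The recovered shares depend on how many genes change, which is not known for these data. The 5.9% is not an error rate of the 405 calls.

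The text names the 14 largest rises and falls past the threshold without overlap between groups, leaving out clone and model numbers, up to 4 called members of each of 44 gene lists, all measured mast cell genes, and the 6 largest differences between diets in each direction. Other named genes complete a list or were chosen after their values were seen. The members and lists were chosen with earlier results of these data known. Alternatives covered normalization, offset, filter, probe choice, samples in the model, array weights, the variance prior, the replicate block and leaving out arrays.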

Additional observations from a re-analysis of the deposited data

Results flagged for a closer look

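The difference between KitW/Wv and Cpa3+/+ was not the same on both diets for 152 genes (limma interaction test, adjusted p below 0.05). Values here are the difference on HFD minus that on LFD, on the log2 scale. The most negative were Tph2 (-6.42), Itgad (-4.93), Lipf (-4.86), Comp (-4.46), Ncan (-4.38), Ubd (-4.10), Slc5a7 (-3.64) and Otop1 (-3.00). Among macrophage and immune genes they were Trem2 (-2.80), Anpep (-2.61), Ctss (-2.03), Mpeg1 (-2.02), Tyrobp (-1.72), Adgre1 (-1.65), Fcer1g (-1.24), H2-DMb1 (-2.65), H2-DMb2 (-2.58), Il1rn (-2.13), Il7r (-2.12) and Gusb (-1.44). Among cell cycle genes they were Cdca8 (-2.24), Tk1 (-2.16), Cdk1 (-2.05), Birc5 (-1.93) and Cdkn2b (-1.41). Htr2b (-2.81), Atf3 (-2.51), Dhcr7 (-2.15), Lss (-1.93) and Mmp13 (-1.47) were also more negative on HFD. Igh-4 (3.73), Agt (2.90), Fam13a (2.65), Ripk4 (2.45), Wdr92 (2.17), Nrbp2 (2.02) and Gsta4 (1.88) were more positive on HFD. Wdr92 did not pass in the HFD comparison itself (limma adjusted p = 0.077).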

How the results depend on the processing

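Of 80 named genes past the threshold, 20 kept their call with each of the 5 arrays left out in turn, 14 kept it under every alternative, and none reversed. Those 14 were Tph2, Cma2, Itgad, Lipf, Mcpt4, Cpa3, Ncan, Comp, Slc5a7, Ubd, Cma1, Tpsb2, Otop1 and Fcer1a, so no rise was among them. The 405 genes of the main comparison were 342 to 556 under the authors' normalized values, median scaling, another offset, other filters, the mean of probes, the 5 arrays alone or another variance prior. Of the 405, 263 were among the 470 called with the 5 arrays alone, of which 166 were higher, and 365 among the 556 called with the authors' values. With the 8 HFD arrays 734 passed (276 higher, 458 lower), and with array weights 1454 (595 higher, 859 lower). The share of higher genes, 25.2% in the main comparison, was then 35.3%, 37.6% and 40.9%. With 1 array left out the count was 63 to 306 (7 to 83 higher, 56 to 223 lower), lowest without Cpa3+/+ HFD replicate 1 (63) or 2 (81) and 167 without KitW/Wv HFD replicate 3; a lone wild-type array is assumed to vary like the other groups.

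The 152 genes of the difference between diets were 268 with array weights and 27 to 194 with 1 array left out: 27 and 34 without Cpa3+/+ HFD replicates 1 and 2, 95 and 72 without KitW/Wv HFD replicates 2 and 3, 89 without Cpa3+/+ LFD replicate 1, and 98, 88 and 73 without KitW/Wv LFD replicates 1, 2 and 3. With replicate number as a block 317 genes passed in the main comparison (86 higher, 231 lower) and 96 in the difference between diets. The labels give no pairing. Same-numbered HFD arrays of the 2 groups deviated from their group means together, with r = 0.36 and 0.22. The deviations of the 2 wild-type arrays mirror each other, so the 2 values are not separate evidence and do not settle whether the number pairs arrays. Calls such as those of Mzb1, Cd79b and Fcmr were lost under the block.

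Leaving out several arrays together was tried in 3 ways, all chosen after seeing the data. The first set, picked by eye, held 5 arrays (KitW/Wv HFD 1 and 3, Cpa3+/+ LFD 3, Cpa3Cre/+ LFD 2 and KitW/Wv LFD 3) and left 76 genes (22 higher, 54 lower) and 54 for the difference between diets. The second, made after that result was known by putting KitW/Wv HFD 3 back, held 4 arrays and gave 481 genes (168 higher) and 164. The last set took every array over 1 above average on 1 of the 7 lists named in the results, the 4 arrays used in the results, and left 37 (4 higher, 33 lower) and 23. The first and last sets leave 1 KitW/Wv HFD array, so fewer samples enter. Whether those counts fall for another reason was not tested.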
